A study of Drosophila melanogaster with 2 samples.

Results

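The core clock feedback loop genes of Drosophila melanogaster were examined as 8 named genes, per, tim, Clk, cyc, vri, Pdp1, cwo and cry, out of 13945 protein-coding genes on the 6 chromosome arms. For each gene, every region was taken whose summit, the position of highest signal, lay in the gene body or within 5 kb of it. The regions come from chromatin immunoprecipitation followed by sequencing of whole adult flies, males and females pooled, of unknown age. The single group consisted of 2 biological replicates, numbered 2 and 3, of a transgenic line (Crg-1-GFP) that stably expresses the forkhead-family protein Crg-1 with GFP fused to its C terminus, precipitated with an antibody against GFP. Both replicates carried the same transgene and no treatment is stated. Neither the time of day of collection nor the state of the endogenous Crg-1 gene is stated in the labels, and both replicates carry the same donor label. No untagged control sample was analysed here, and since the tissue was the whole animal, signal in the few clock neurons cannot be told apart from signal in other cells.

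In the fly clock, the proteins Clk and cyc form a dimer that binds E-box sequences and activates per and tim, whose products enter the nucleus and repress that dimer. In a linked loop the same dimer activates vri and Pdp1, which encode basic leucine zipper proteins that repress and activate Clk. The product of cwo represses through the same E-boxes, and cry encodes the blue-light photoreceptor that resets the clock by triggering the loss of tim protein. Crg-1 was itself first described as a gene of circadian expression.

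The sequence under the summit of the highest region of each of the 8 loci is shown first, because the question for these genes is where in each locus the tagged protein was found. A weaker region each of vri and cwo is added because it holds a forkhead word, a choice made after the sequences were searched, so the words are more frequent in this selection than in all 21 regions. Each is the 101 bases centred on a summit of the pooled list, from the Release 6 genome (dm6), written in the direction of the clock gene. Capitals mark a match on either strand to 1 of 5 words, the E-box CACGTG, the forkhead words GTAAACA and ATAAACA, the word TTATGTAA bound by proteins of the vri and Pdp1 type, and the DRE word TATCGATA of broadly active promoters.
cry, upstream of its start (chr3R:19211840-19211940, plus strand): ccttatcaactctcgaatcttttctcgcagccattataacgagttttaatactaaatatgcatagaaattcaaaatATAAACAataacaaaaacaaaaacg
Pdp1, strongest intronic region (chr3L:7851041-7851141, minus strand): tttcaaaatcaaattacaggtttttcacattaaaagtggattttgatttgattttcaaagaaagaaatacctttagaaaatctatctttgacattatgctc
cyc locus, between Fibp and Deaf1 (chr3L:19818044-19818144, minus strand): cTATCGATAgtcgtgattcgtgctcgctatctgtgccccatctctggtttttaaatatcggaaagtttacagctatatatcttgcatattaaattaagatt
vri, first intron (chr2L:5293341-5293441, plus strand): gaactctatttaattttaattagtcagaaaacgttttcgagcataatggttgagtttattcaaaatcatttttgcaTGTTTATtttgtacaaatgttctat
vri, at the middle start site, weaker (chr2L:5299433-5299533, plus strand): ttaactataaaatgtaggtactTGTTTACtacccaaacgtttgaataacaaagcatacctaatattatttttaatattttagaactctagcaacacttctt
cwo, strongest region, first intron (chr3R:10391049-10391149, plus strand): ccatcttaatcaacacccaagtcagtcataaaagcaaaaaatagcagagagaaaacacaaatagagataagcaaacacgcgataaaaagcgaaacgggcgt
cwo, near its start, weaker (chr3R:10388870-10388970, plus strand): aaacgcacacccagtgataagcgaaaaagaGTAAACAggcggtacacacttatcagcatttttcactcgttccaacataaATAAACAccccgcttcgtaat
tim, between start sites (chr2L:3507799-3507899, minus strand): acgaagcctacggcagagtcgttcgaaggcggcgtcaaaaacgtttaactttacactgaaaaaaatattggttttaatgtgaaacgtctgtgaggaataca
Clk, strongest candidate, not thresholded (chr3L:7772187-7772287, minus strand): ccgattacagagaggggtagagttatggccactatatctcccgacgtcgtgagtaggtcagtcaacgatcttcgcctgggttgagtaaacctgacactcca
per, strongest candidate, not thresholded (chrX:2685952-2686052, plus strand): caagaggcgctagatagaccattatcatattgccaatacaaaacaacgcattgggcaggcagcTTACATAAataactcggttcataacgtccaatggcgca

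The authors deposited 3707 thresholded regions, which they derived from both replicates by irreproducible discovery rate, and 3 lists of 30000 candidate regions each, for the pooled data, replicate 2 and replicate 3. The candidate lists run down to low signal and include background. The signal column gives the height of a region in the authors' units, from 109.7 to 1889.4 in the thresholded set with a median of 161.2. It was used only within a list, and replicates were compared by rank, with rank 1 the highest signal. Regions were called top-ranked in a replicate when they stood among its 3707 highest. The lists give no read totals, so depth is unknown, and both replicates shared 1 control alignment. The gene of the tagged protein, Crg-1, had no thresholded region within 5 kb and its best pooled candidate ranked 26620. This does not check the label, which concerns a transgene.

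A thresholded region lay in the locus of 6 of the 8 core clock genes, cry, Pdp1, cyc, vri, cwo and tim, and in none for per and Clk. Over all protein-coding genes, 47.6% met the same rule. Among the 1394 genes nearest in length to each member the share lay between 49.4%, for genes of the length of cyc, and 59.2%, for those of the length of tim. A thresholded summit stood within 500 bp of an annotated start site of the gene itself in 4 of 8, cry, vri, Pdp1 and tim. This held for 22.9% of all genes and 23.5% to 32.0% of the genes nearest in length to each member. Any annotated start site counted, and tim and vri have 3 each, Pdp1 has 4 and cry has 1. The genes nearest in length were not matched for number of start sites. With the outermost start site alone, 2 of the 8 remained, tim and cry. In 5 of 8, the gene's own start site was nearest of any gene to a region in its locus, beside 19.4% of all genes. The region at cyc was nearer to other genes. Among genes nearest in length this share was 17.6% for cyc, 23.6% for cry, 30.2% for per and 32.5% to 33.5% for the other 5 members. No test was made on these counts, because the genes were chosen with earlier results of these data known.

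The 6 loci together held 21 thresholded regions, 20 after merging of overlapping ones. Pdp1 held 11, vri 5, cwo 2, and cry, cyc and tim 1 each. Their signals ran from 110 to 345.9 with a median of 140, and 8 of the 21 stood above the median of all thresholded regions. Counting every pooled candidate, background included, the 8 loci held 132, at 3.56 per 10 kb for cwo to 8.95 per 10 kb for Pdp1. All stood above the median of all protein-coding loci of 3.36, but cwo, Clk with 3.58 and tim with 3.73 were close to it. This density is not set beside genes of similar length. A density as high as that of Pdp1 was found in 3.40% of loci and as high as that of vri, 8.05 per 10 kb, in 6.24%.

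The order of the loci by their highest region was much alike in both replicates. In the pooled list the best region of cry ranked 393, that of Pdp1 413, that of the cyc locus 711, that of vri 1573, that of cwo 2710 and that of tim 3598. Of the 28 pairs of genes, 25 stood in the same order in replicate 2 and replicate 3. The pairs cry and Pdp1, cyc and vri, and cwo and tim changed places, so neighbours in these pairs are not separated by the data. Clk stood above per in both replicates and below it in the pooled list. The best signal of cry was reached or exceeded in 9.34% of all protein-coding loci, that of Pdp1 in 9.65%, that of cyc in 15.4%, that of vri in 28.7%, that of cwo in 40.2% and that of tim in 46.9%. For per and Clk the shares were 58.2% and 63.2%, so their best candidates lay below the middle of all genes. Among genes nearest in length the shares were 9.61% for cry, 10.1% for Pdp1, 17.7% for cyc, 34.4% for vri, 49.4% for cwo, 58.1% for tim, 70.9% for per and 76.0% for Clk. In that comparison the best region of tim also lay below the middle.

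**Figure D1:**
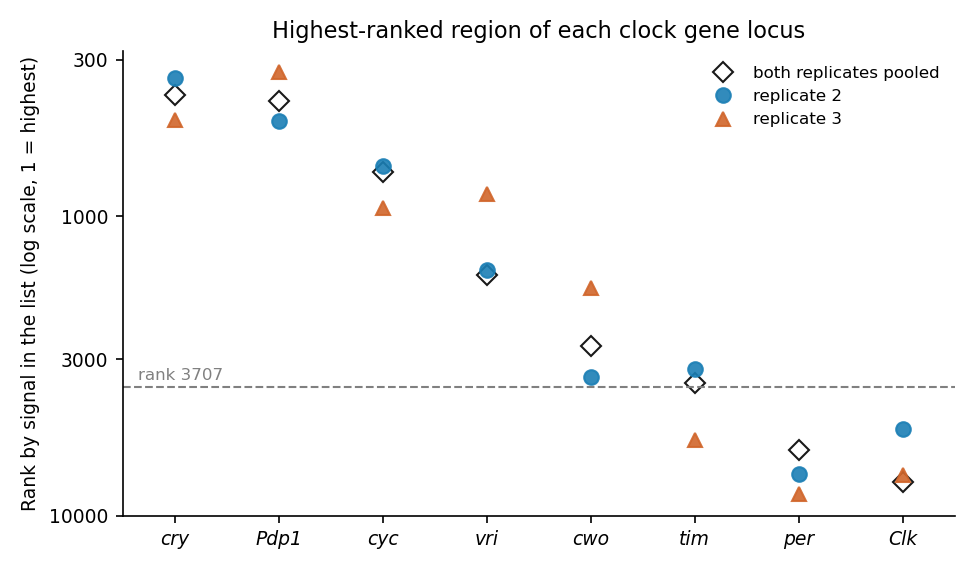
Rank by signal (log scale, 1 at the top) of the highest-ranked region in each of the 8 core clock loci, in the pooled list (open diamonds), replicate 2 (circles) and replicate 3 (triangles). The dashed line is rank 3707, and per and Clk lie beyond it in all 3 lists, while tim lies beyond it in replicate 3.

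The repressor gene per (FBgn0003068, chromosome X, 2685580 to 2692780, plus strand) had 8 pooled candidates and no thresholded region. Its best candidate had a signal of 82.1 and rank 6039 in the pooled list, rank 7247 in replicate 2 and rank 8481 in replicate 3. The summit lay in an intron 422 bp downstream of the only annotated start site, and the replicates placed it at 380 and 408 bp. All 3 lists thus held a candidate at the start of per, below the threshold in each. Its 101 bases held TTATGTAA, read as TTACATAA on the printed strand, a word present at 2 of the 132 pooled summits in the 8 loci. The nearest thresholded summit outside the locus was 11102 bp away, at the start of the sugar transporter gene Ugalt, with a signal of 1358.7.

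The partner of per, tim (FBgn0014396, arm 2L, 3493986 to 3508119, minus strand), had 1 thresholded region at 3507629 to 3508068. Its signal of 111.4 was close to the lowest of the thresholded set. The summit lay in a 5' UTR of the transcripts from the outermost start site, 270 bp downstream of that site and 245 bp upstream of the next. It ranked 3246 in replicate 2 and 5598 in replicate 3, so it was top-ranked in replicate 2 alone, although the summits of the replicates lay 9 bp apart. With replicate 3 alone tim would hold no top-ranked region. The innermost start site, from which 6 of the 10 annotated transcripts begin, had a best candidate within 500 bp of rank 7315. That candidate lay 363 bp from the innermost site but 23 bp from the middle one. A pooled candidate 193 bp from the innermost site ranked 11856.

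The activator genes differed from each other. Clk (FBgn0023076, arm 3L, 7763233 to 7775603, minus strand) had no thresholded region and 8 pooled candidates. The best, with a signal of 69.8, lay in an intron 3366 bp downstream of a start site and ranked 7706 in the pooled list. In replicate 2 the same summit ranked 5129, and in replicate 3 the best candidate of the locus was another one, 1864 bp from the start, of rank 7302. At the outermost start site of Clk the best candidate ranked 8294, and no pooled candidate lay within 500 bp of the inner one.

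The cyc locus (FBgn0023094, arm 3L, 19813770 to 19815938, minus strand) held a region with a signal of 265.4 at 19817874 to 19818313. It ranked 677 in replicate 2 and 938 in replicate 3. Its summit was 2156 bp upstream of the cyc start site but 80 bp from a start of Deaf1, which encodes a DNA-binding transcription factor, in the short interval between the divergent genes Deaf1 and Fibp. In replicate 3 the summit was nearest to Fibp, at 87 bp. The summit sequence held the DRE word TATCGATA near its edge. At the cyc start site itself the pooled list held 1 candidate, of rank 11420 with a signal of 54.2, and the replicate 3 list held none. The region was therefore inside the 5 kb reach of cyc without lying at its promoter.

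The gene cry (FBgn0025680, arm 3R, 19212154 to 19215442, plus strand) had the highest signal of the 8 loci, 345.9, in a region at 19211785 to 19211954. The region ranked 344 in replicate 2 and 478 in replicate 3. Its summit lay 264 bp upstream of the start of cry in the pooled list and replicate 2 and 212 bp upstream in replicate 3. The non-coding gene lncRNA:CR46393 starts at the same base as cry, so the data cannot assign the region to either of them. No other pooled candidate in the cry locus had a signal above 53.7.

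The repressor gene vri (FBgn0016076, arm 2L, 5288944 to 5311223, plus strand) held 5 thresholded regions, all inside the gene. Among the 1394 genes nearest to it in length, 10116 to 34412 bp, 4.02% held as many and the median was 1. The strongest, with a signal of 177.3, lay in the first intron, 4447 bp downstream of the outermost start site. It ranked 844 in replicate 3 and 3049 in replicate 2, and the replicates placed the summit 2 bp apart. The next, with a signal of 168.4, stood 164 bp upstream of the middle start site and ranked 1517 in replicate 2 and 1898 in replicate 3, with summits 163 bp apart. The other 3 had signals of 135.6, 121.4 and 114 and lay between the middle and the innermost start site.

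The innermost start site of vri, from which 3 of its 5 annotated transcripts begin, had a candidate 39 bp away with a signal of 95.8 that ranked 4665, beyond the threshold. Within 500 bp of the outermost site the best candidate ranked 18601 in the pooled list and 10289 in replicate 2, and replicate 3 held none. A pooled candidate of rank 5943 lay just beyond, at 575 bp. Of the 5 thresholded regions of vri 3 were top-ranked in both replicates, the region of 121.4 being so in replicate 3 alone and that of 114 in replicate 2 alone. Replicate 2 alone gave 6 top-ranked regions in the locus and replicate 3 alone gave 5.

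The activator gene Pdp1 (FBgn0016694, arm 3L, 7811458 to 7867369, minus strand) held 11 thresholded regions, 9 of them in the gene body. The other 2 lay beyond its 3' end at CG32369, with signals of 165.6 and 110, the former 88 bp from a start of that gene. Only 5 protein-coding genes held 11 or more, and they are named after their values were seen. They were CHES-1-like, a forkhead-family gene, with 12, and Mnt, tara, ush and Pdp1 with 11 each. Among the 1394 genes nearest to Pdp1 in length, 13715 to 97664 bp, 0.359% held as many. With replicate 2 alone the Pdp1 locus held 11 top-ranked regions and with replicate 3 alone 10.

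The 9 gene-body regions of Pdp1 lay before its start site numbered 3. Of its 4 annotated start sites, the interval from the outermost to the next held 4 thresholded regions in 11821 bp, and the following interval held 5 in 22475 bp. The rest of the gene, from the start site numbered 3 onward, held none, although it held 4 pooled candidates before and 12 after the innermost site. The strongest region, with a signal of 340.6 at 7851017 to 7851126, lay in an intron of 33153 bp, 4457 bp downstream of the start site from which 7 of the 13 annotated transcripts begin. It ranked 481 in replicate 2 and 329 in replicate 3, with summits 47 bp apart.

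A pair of overlapping entries of Pdp1 followed, with signals of 270.3 and 209.1, in the intron behind the outermost start site, 3438 and 3239 bp from it. Replicate 2 held a single region there, of rank 664, and replicate 3 held a pair of them, the better of rank 728. Intronic regions of 158.4, 147.1, 140, 118.6 and 112.3 and a 5' UTR region of 118.5 made up the rest of the gene body. The last of these was the only thresholded summit within 500 bp of a Pdp1 start site, at 418 bp, and the region of 147.1 fell just outside, at 523 bp. Within 500 bp of the start sites, the best candidate of replicate 2 ranked 4646, so the promoter call at Pdp1 did not hold in replicate 2 alone. That of replicate 3 ranked 1697 but was another one, 472 bp from a start, which overlapped the region of 147.1. The 5' UTR region ranked 2542 in replicate 3. The replicate 2 region that overlapped the 5' UTR region best, of rank 3148, had its summit 293 bp from that of replicate 3.

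The E-box repressor gene cwo (FBgn0259938, arm 3R, 10388258 to 10400752, plus strand) held 2 thresholded regions of nearly equal signal. The region of 131.6 lay in the first intron, 2841 bp from the only start site, and ranked 4325 in replicate 2 and 1734 in replicate 3. The region of 129.4 lay in a 5' UTR 662 bp downstream of the start and ranked 3445 and 2421. No list held a candidate within 500 bp of the start site. Of genes near cwo in length, 32.6% held as many regions.

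**Figure D2:**
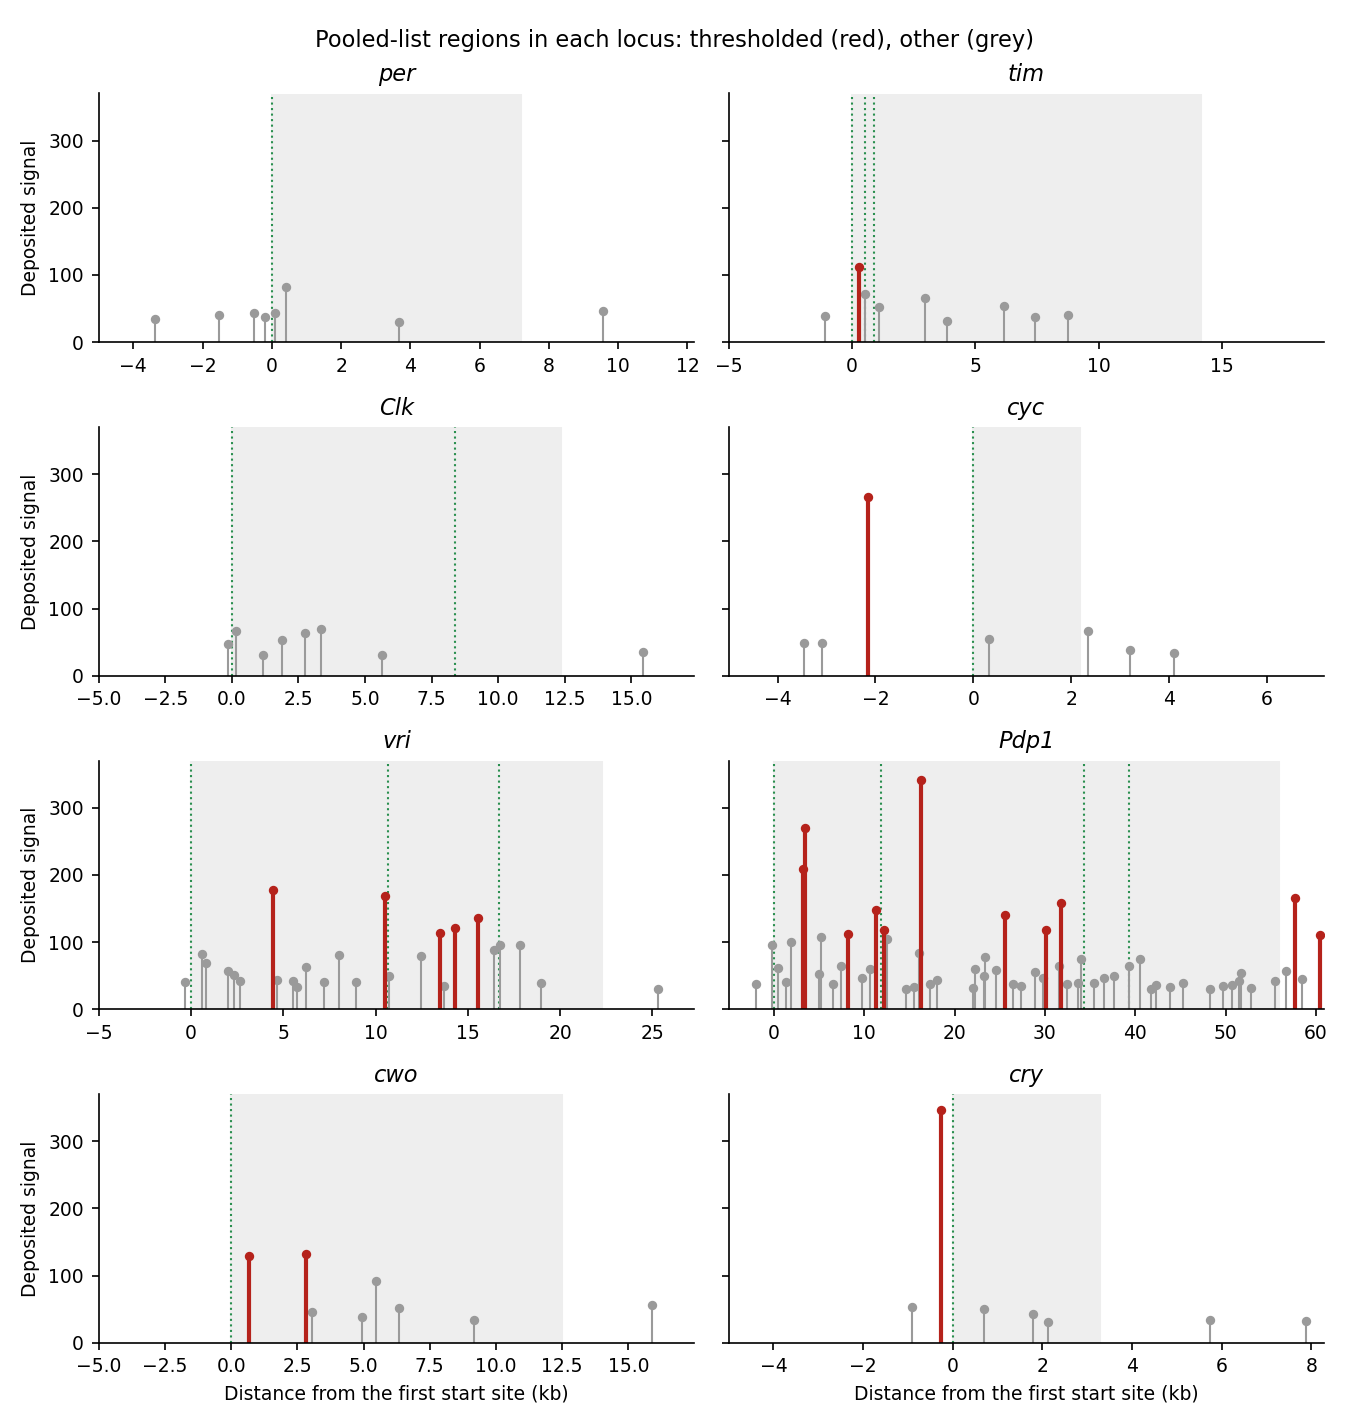
Signal of each pooled-list region (vertical axis, the authors' units) against the distance of its summit from the first start site in the direction of the gene (kb), for the 8 core clock loci with their 5 kb flanks. Thresholded regions are red and other candidates grey, the gene body is shaded and dotted lines are start sites. The 11 red regions of Pdp1 and the 5 of vri contrast with per and Clk, which have none.

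**Figure D3:**
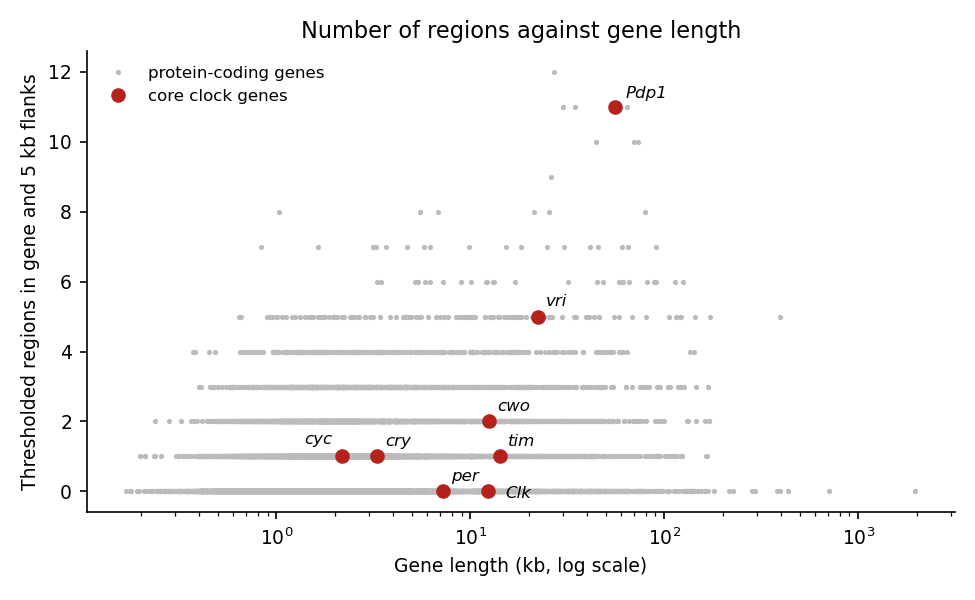
Number of thresholded regions in the gene body and 5 kb flanks against gene length (kb, log scale) for 13945 protein-coding genes (grey) and the 8 core clock genes (red). Pdp1, with 11, lies among the 5 genes with the most regions, and vri has 5, while the other members have between 0 and 2.

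The regions of the core clock genes lay mostly away from start sites. Of the 21 summits, 14 were intronic in the clock gene, 3 in a 5' UTR, 2 upstream and 2 downstream. Only 6 lay within 500 bp of a start site of any gene, or 28.6%, whereas 70.9% of all thresholded summits did. The 15 others belonged to Pdp1 with 9, vri with 4 and cwo with 2. In loci of the 1394 genes nearest in length to Pdp1, 40.2% of the thresholded summits lay more than 500 bp from any start. Those genes ran from 13715 to 97664 bp. For the genes nearest in length to vri, 10116 to 34412 bp, the share was 32.4%. It was 29.1% over all thresholded summits and 71.4% of these 21. The 21 regions are not independent, as 16 come from Pdp1 and vri, and no test was made.

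The clock genes outside the core loop served for comparison. A list of 16 held genes of kinases, phosphatases, ligases, RNA-binding proteins and outputs, and 14 of them had a thresholded region in the locus, with Pdf, the main clock neuropeptide gene, and its receptor gene Pdfr having none. Of their 23 regions, 21 lay within 500 bp of a start site of any gene, or 91.3%, beside 70.9% of all thresholded summits. The highest were at mts with 480.6, tws with 451.6, jet with 388.4 and slmb with 310.1. Of these only the region at tws, a regulatory subunit gene of protein phosphatase 2A, had its own start as the nearest, at 30 bp. The region at mts lay 28 bp from a start of Rack1, that at jet 85 bp from betaggt-I and that at slmb 1 bp from CG5793. The regions at mts and slmb also lay within 500 bp of a start of those genes. A thresholded summit stood within 500 bp of an own start site in 10 of the 16, beside 22.9% of all protein-coding genes. Across the 16 genes, 6 had a region nearest to their own start, beside 19.4% of all. A region anywhere in the locus, present in 14, was found in 47.6% of all.

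Support from each replicate was examined at the 21 regions. All of them overlapped a top-ranked region in at least 1 replicate, 18 in replicate 2 and 17 in replicate 3. In both replicates 14 did, or 66.7%, beside 75.9% of all thresholded regions. For at least 1 replicate and for each replicate singly, no share over all thresholded regions is set beside the counts. Such overlap is partly given, since the thresholded set was derived from the same replicates. The 7 without support in both were the tim region, 2 of vri, 3 of Pdp1 and 1 of cwo, with signals from 110 to 131.6. All 8 regions with a signal above the median of the thresholded set were top-ranked in both replicates. The pooled signal comes from the same 2 replicates, so this is partly given by the ranking. No share over all regions above the median is set beside it. The overlapping Pdp1 regions of 270.3 and 209.1 rest on the same region in each replicate. The summits of the best overlapping regions of the replicates lay 1 to 293 bp apart with a median of 47 bp, beside 26 bp over all thresholded regions.

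**Figure D4:**
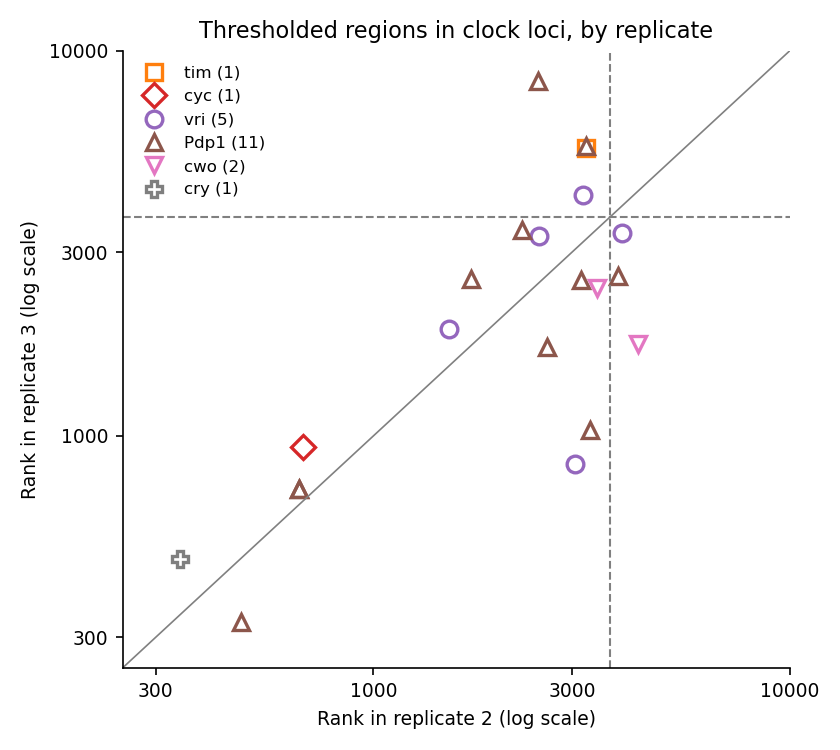
Rank in replicate 2 against rank in replicate 3 (both log scale) of the best region overlapping each of the 21 thresholded regions in the core clock loci, by gene. Dashed lines mark rank 3707 and the diagonal equal ranks. The regions of cry and cyc and the strongest of Pdp1 lie near the diagonal at low ranks, and 7 regions lie beyond a dashed line.

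Each of the 5 words searched occurred at no more than 3 of the 21 summits. Within 50 bp of the 21 summits GTAAACA occurred at 2, in vri at the middle start site and in cwo near its start, or 9.52% (95% Wilson interval 2.65 to 28.9) beside 6.02% of all thresholded summits. ATAAACA occurred at 3, in cry, in the vri intron and in the same cwo sequence, or 14.3% (4.98 to 34.6) beside 6.04%. Either forkhead word was present at 4 of 21, or 19.0%, beside 11.5% of all. The intervals of GTAAACA and of ATAAACA contain the shares of all regions, and none was computed for either word together. The strongest Pdp1 sequence held none of the 5 words, and TATCGATA occurred at 1 of 21 summits beside 3.86% of all. Promoters were searched over 300 bases, from 250 before to 50 after the outermost start site, against 101 bases at each summit. Their shares are therefore not comparable with those at summits. Of all promoters, GTAAACA occurred in 9.19%, ATAAACA in 13.1%, CACGTG in 4.20%, TTATGTAA in 2.15% and TATCGATA in 9.36%.

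The E-box word CACGTG was not found within 50 bp of any of the 21 summits, nor was TTATGTAA, for which the upper Wilson bound is 15.5% in each case, and they occurred at 1.13% and 0.917% of all thresholded summits. Within 100 bp both words were still absent, beside 2.91% for CACGTG and 1.83% for TTATGTAA of all thresholded summits. CACGTG did occur farther from the summit, in a window chosen after the data were seen. Within 250 bp it was present at 6 of 21, 2 in vri and 4 in the Pdp1 locus, or 28.6%, beside 8.20% of all thresholded summits. Of these, 5 lay inside the deposited region. Those in the Pdp1 locus include the word near the region of 110, beyond the 3' end of the gene. No interval was computed for this share. The median distance from a summit to the nearest CACGTG was 650 bp for the 21 regions and 2411 bp for all, with distances over 3000 bp counted as 3000. The 42 bases around the word are shown for the 2 regions of vri and for 2 of Pdp1, with the word in capitals.
vri, 105 bp from a summit of signal 121.4 (chr2L:5303334-5303375, plus strand): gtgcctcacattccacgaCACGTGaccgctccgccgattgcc
vri, 197 bp from a summit of signal 135.6 (chr2L:5304658-5304699, plus strand): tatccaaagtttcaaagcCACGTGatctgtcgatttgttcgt
Pdp1, 177 bp from a summit of signal 270.3 (chr3L:7863734-7863775, minus strand): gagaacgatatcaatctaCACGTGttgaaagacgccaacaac
Pdp1, 159 bp from a summit of signal 118.6 (chr3L:7837062-7837103, minus strand): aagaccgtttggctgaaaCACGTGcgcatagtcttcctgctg

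Neither the region of cry, the strongest of the 8 loci, nor the strongest of Pdp1 lay near a CACGTG. The word stood 1142 bp from the cry summit, and none was found within 3000 bp of the strongest Pdp1 summit. At tim the nearest was 430 bp from the summit, in the promoter of the innermost start site, at base -204 from it. A word match is a description of the sequence and does not show which protein was bound.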

How the data were processed

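The deposited lists are narrow-peak files on dm6. Per the deposited file descriptions, the authors called each replicate list from that replicate and a shared control alignment, the pooled list from both, and derived the thresholded set from these 3. No source used here names the aligner, the caller or a version. Ranks were taken from the signal column deposited by the authors. The deposited -log10 q column was not used for ranks, since most thresholded regions share its highest value. Most regions have a fixed width, 440 bp in 98.7% of the pooled list and 99.0% of replicate 2, and 424 bp in 99.4% of replicate 3, so widths carry little information. Coordinates count from 1. Lists on dm3 were not used here.

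Genes and start sites came from the Ensembl release 115 annotation without transposable elements, and bases from the Release 6 genome, whose arm lengths hold all regions. Distances, overlaps of at least 1 bp and word searches were computed with Python 3.11.15 and pandas 2.3.3. The counting of summits in the reach of a gene and the word searches were tested on simulated data. Distances to start sites and overlaps between lists were not. Loci of similar length were the tenth of protein-coding genes nearest in length. No p-value was computed. The rule for named genes took the 8 members, the nearest gene to each region, Crg-1 and the 4 highest of 16 other clock genes. CHES-1-like, Mnt, tara, ush, Pdf, Pdfr and Ugalt fall outside it and were named after their values were seen. The members and lists were chosen with earlier results of these data known. Regions of a locus are not replicates, and Wilson intervals cover counting over regions only.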

Additional observations from a re-analysis of the deposited data

How the results depend on the processing

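With the 3707 top regions of replicate 3 or of replicate 2 in place of the thresholded set, the number of core clock loci with a region lay between 5 and 6, the number with a region at a start site was 3 in both cases, the number whose own start was nearest lay between 4 and 5, and the number with a top-ranked region lay between 5 and 6. The number with a region at a start site, 4, fell to 2 with a distance of 250 bp, with the outermost start site alone and with regions above the median signal. Regions top-ranked in both replicates fell from 14 to 6 when the 2000 highest of each replicate were used. No share over all genes or all thresholded regions under these changed rules is set beside these counts. Whether the counts fell more or less than those of all genes or regions is therefore not shown. Over all pooled summits in the loci, ATAAACA was present at 3.03% and TATCGATA at 0.758%, beside 14.3% and 4.76%. With 250 bp in place of 50 bp, a setting chosen after the data were seen, CACGTG rose from 0 to 28.6% of the summits. The cause of these changes beyond the wider or narrower windows and smaller sets was not tested. For counts, shares and distances, 27 of 34 alternatives made no larger change than 1.5 times the count or the interval of the share. The best rank of each gene changed in all 16 alternatives that used 1 replicate alone. With replicate 2 and replicate 3 in turn, per went from 6039 to 7247 and 8481, and tim from 3598 to 3246 and 5598. Clk went from 7706 to 5129 and 7302, cyc from 711 to 677 and 938, and vri from 1573 to 1517 and 844. Pdp1 went from 413 to 481 and 329, cwo from 2710 to 3445 and 1734, and cry from 393 to 344 and 478. No paired analysis was possible because there was 1 group. With 2 libraries of unknown depth, no untagged control sample analysed here and 8 genes, absence of a region at per or Clk says only that none passed the threshold.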
